A study of Homo sapiens with 27 samples.

Results

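Nuclear receptor coactivators and corepressors were followed through estrogen deprivation in 2 invasive lobular carcinoma (ILC) cell lines. The set held 9 genes of the 60619 in the table of gene counts and was chosen by name: NCOA1, NCOA2, NCOA3, NCOA7, EP300, MED1 and PELP1 as coactivators, NCOR1 and LCOR as corepressors. The rule used names alone, though earlier results of these data were known when it was written. RNA-seq covered 27 libraries in 9 groups of 3. MM134 (MDA-MB-134VI) and SUM44 (SUM44PE) are ER-positive human ILC lines. Long-term estrogen-deprived (LTED) variants of each line had been maintained in medium with charcoal-stripped serum: MM134 LTED-A, -B, -D and -E, and SUM44 LTED-A and LTED-B. The parental groups were MM134 parental, SUM44PE and SUM44F, the last being SUM44PE cells grown in the serum-containing medium used for MM134. SUM44F was the parental of the SUM44 LTED variants. Parental groups were kept without hormone for 3 days before collection, so parental and LTED cells shared the absence of added estrogen. They differed in its duration. By the study's account they also differed in the growth medium before those 3 days and in the emergence of estrogen-independent clones. These differences cannot be told apart here. Each variant is 1 line seeded in triplicate wells, so the p-values measure the spread between wells of 1 culture, not between independently derived lines. In bulk RNA a change in the cells that express a gene and a change in RNA per cell cannot be told apart.

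A steroid receptor such as ER does not transcribe a gene by itself. Once bound by ligand it recruits p160 coactivators, which are docking proteins for histone acetyltransferases such as p300, and the Mediator complex, which bridges to RNA polymerase. Corepressors bring histone deacetylases to the receptor, in particular when it is unliganded or bound by an antagonist, and the balance of both classes is a long-standing theme in work on endocrine resistance of breast cancer.

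The libraries held 28583554 to 134882175 estimated counts (median 44018412). Each coregulator was well covered, from at least 590 counts for NCOA7 to at most 53888 for NCOA1. Replicates 2 and 3 of SUM44 LTED-A agreed within sampling noise (chi-square per degree of freedom 0.312, against 2.35 to 58.3 in the other 26 replicate pairs) and were counted as 1 sample, which left 26 samples and n = 2 in that group. The luminal markers EPCAM, KRT8, KRT18, KRT19, ESR1, GATA3 and FOXA1 were detected in every library, and CDH1, whose loss defines ILC, stood at 8.36 to 24.6 CPM, counts scaled to library size. SUM44F replicate 1 stood apart: its 5 fibroblast markers summed to 350 CPM, against 9.28 and 8.07 in SUM44F replicates 2 and 3 and at most 35.4 in any other sample. The 3 endothelial markers summed to 25.8 to 40.5 CPM in SUM44F and to at most 11.1 elsewhere. PECAM1 made up most of this, reaching 27.3 CPM in SUM44 samples, with VWF at most 12.4 and CDH5 at most 0.824. The 6 leukocyte markers summed to 9.43 to 10.5 in MM134 LTED-A and at most 3.41 elsewhere, with CD3D at 0 throughout. In MM134 that sum was nearly all LYZ, which reached 10.3 CPM. There PTPRC was at most 0.365, CD3E 0.0562, CD79A 0.124 and MS4A1 0.0972. SUM44 results are therefore also given without SUM44F replicate 1 where it mattered, and the part of these cell types in the results was not tested.

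Levels are given as CPM normalized over all samples, and differences as log2 fold changes from edgeR's quasi-likelihood test with their standard errors (SE). Differentially expressed (DE) genes passed a fold change above 1.5 and a Benjamini-Hochberg adjusted p under 0.001. A second call used an adjusted p under 0.05 with no minimum fold. Of the 9 coregulators, 2 were DE in each MM134 variant. Among all 26061 genes tested, 20.3% were DE in LTED-A, 15.9% in LTED-B, 17.6% in LTED-D and 19% in LTED-E. MM134 LTED-A had 1 coregulator higher and 1 lower, beside 10.5% and 9.82% of all genes. The 2 in each of LTED-B, LTED-D and LTED-E were all higher, where 8.11%, 9.63% and 8.71% of all genes were higher and 7.75%, 7.95% and 10.3% lower. In SUM44, 2 of 9 were DE in each variant, 1 higher and 1 lower, beside 13.7% of 26828 genes in LTED-A (6.4% higher, 7.29% lower) and 17.3% in LTED-B (8.7% higher, 8.57% lower). With 9 genes these shares are close to the background, so the number of DE coregulators gives no result about the set. The median log2 fold change of the 9 was 0.05, 0.05, 0.05 and 0.17 in the MM134 variants and 0.24 and −0.17 in the SUM44 variants, beside −0.01, 0.02, −0.03, 0.02, −0.06 and −0.09 over all genes. By the second call, 7, 7, 6 and 8 coregulators passed in the A, B, D and E variants of MM134 (all genes 53.2%, 48.4%, 51.4% and 51%), and 6 and 5 in SUM44 LTED-A and LTED-B (all genes 36.1% and 45.9%). What differed was which genes moved: NCOA2 and NCOA7 were upregulated in MM134 variants, PELP1 in SUM44 variants, and NCOA3 was downregulated in both.

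**Figure D1:**
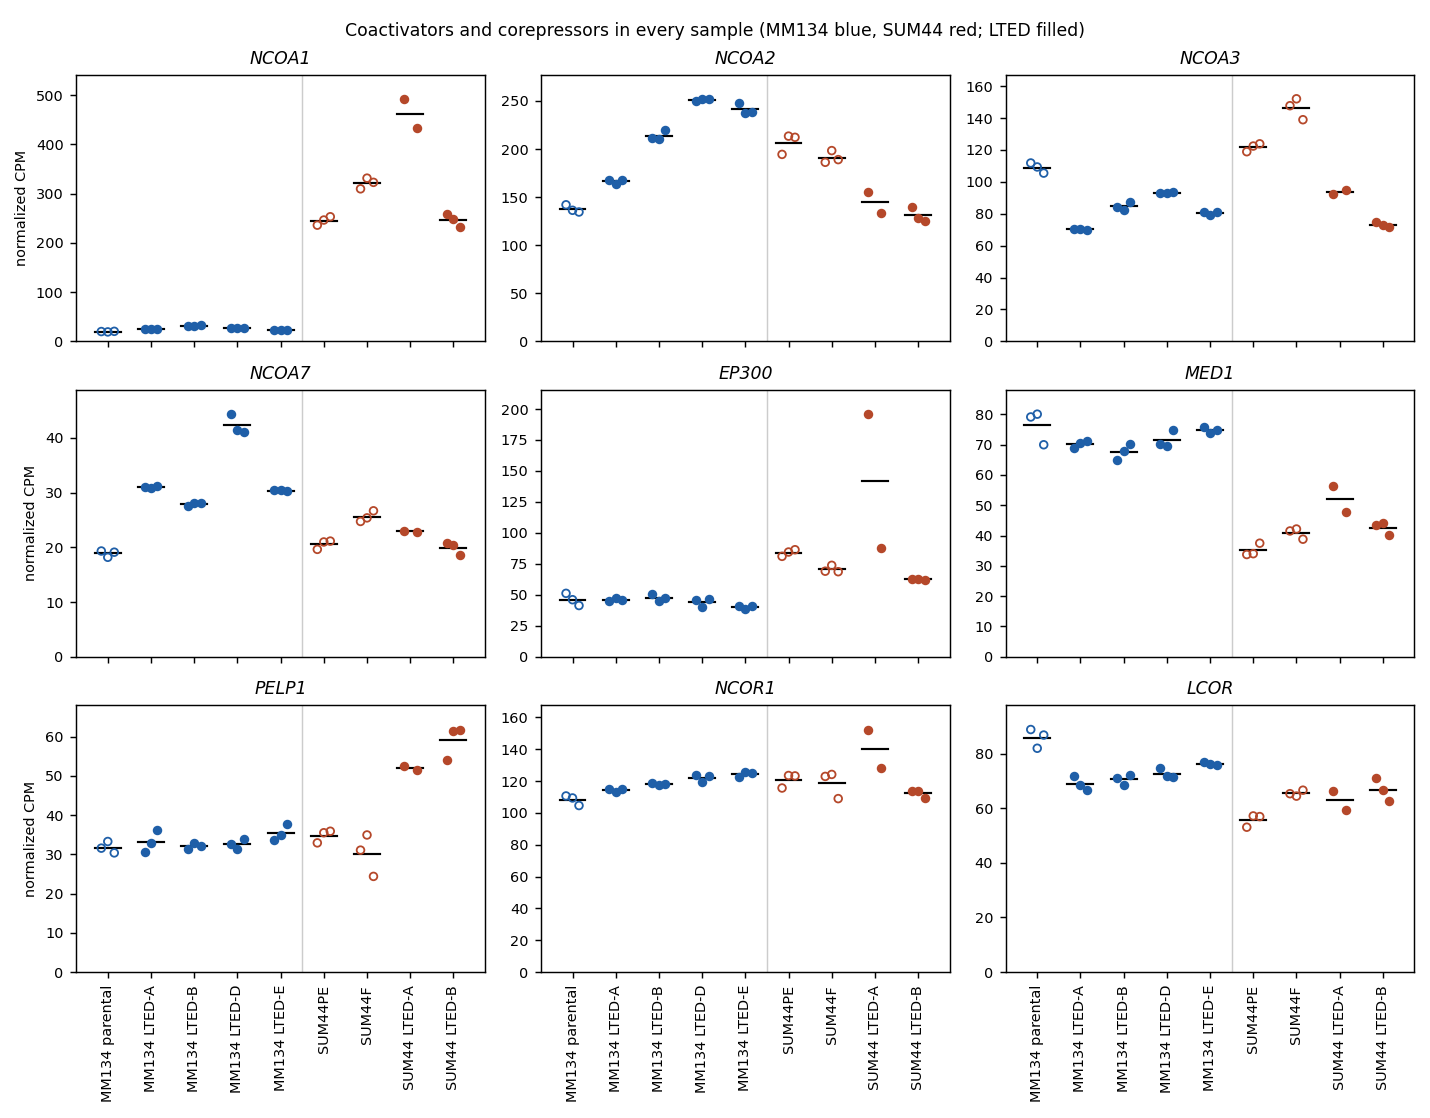
Normalized CPM (vertical axes, linear from 0, a scale of its own for each gene) of the 9 coregulators in every sample of the 9 groups (horizontal axes), with MM134 in blue, SUM44 in red, parental groups as open and LTED variants as filled points, and the group mean as a bar. NCOA1 reaches at most 33.6 CPM in MM134 samples and at least 233 in SUM44 samples, and EP300 in SUM44 LTED-A rests on 1 sample at 196 CPM beside 1 at 88.1.

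The p160 family comes first. NCOA1, also called SRC-1, was the coregulator that differed most between the lines. Its level was 19.9, 19.2 and 20.4 CPM in MM134 parental replicates 1 to 3 and 310, 331 and 323 CPM in SUM44F. The groups did not overlap, and NCOA1 was 16.2-fold lower in MM134 parental cells (log2 fold change −4.02, SE 0.06, adjusted p = 1.18e-25). It lies on chromosome 2 (24491254 to 24770702, plus strand of hg38). The 250 bases before its first RefSeq start (chr2:24491004-24491253, plus strand, GRCh38.p14) are shown because no other coregulator differed as much between the lines; capitals mark the GC box letters GGGCGG, searched on both strands.

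NCOA1: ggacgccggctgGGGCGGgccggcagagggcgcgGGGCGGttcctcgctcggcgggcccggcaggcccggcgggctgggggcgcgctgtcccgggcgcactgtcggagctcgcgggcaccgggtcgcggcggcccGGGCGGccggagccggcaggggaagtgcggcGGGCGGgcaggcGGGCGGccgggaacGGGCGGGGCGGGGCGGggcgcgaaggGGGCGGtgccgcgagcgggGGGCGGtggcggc

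This window had a GC content of 87.2%, where the median over the 35097 RefSeq promoters of the same length was 58%, and held 10 matches to GGGCGG, some of them overlapping. At least 1 match was present in 42.6% of all promoters. The sequence is that of the reference, so it is the same for both lines and bears on neither level.

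Within each line NCOA1 moved little next to that gap. In MM134 it read 25, 24.9 and 25.3 CPM in LTED-A, 31.2, 30.7 and 33.6 in LTED-B, 27, 27.6 and 26.5 in LTED-D, and 24, 23.3 and 24 in LTED-E. Every variant sample was above every parental sample. The log2 fold changes were 0.33 (SE 0.04), 0.69 (SE 0.04), 0.46 (SE 0.04) and 0.27 (SE 0.04), all with an adjusted p under 0.05, and only LTED-B reached DE (adjusted p = 3.64e-11). The SUM44 variants went apart. NCOA1 stood at 492 CPM in SUM44 LTED-A replicate 1 and 432 in the mean of replicates 2 and 3, above all SUM44F samples, and at 258, 249 and 233 CPM in LTED-B, below all of them. Neither change was DE (LTED-A 0.53, SE 0.09, adjusted p = 0.00117, LTED-B −0.38, SE 0.08, adjusted p = 0.00365), but the variants differed from each other by 0.91 (SE 0.09, adjusted p = 4.93e-05), the only DE difference between them among the 9 genes (7.42% of all genes). Without SUM44F replicate 1 the fold changes were 0.50 and −0.41.

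NCOA2, the p160 coactivator also called TIF2 or GRIP1, rose in MM134 variants and was lower in SUM44 variants. In MM134 parental cells it read 142, 136 and 134 CPM. It reached 168, 163 and 167 CPM in LTED-A, 212, 210 and 219 in LTED-B, 250, 252 and 252 in LTED-D, and 248, 237 and 239 in LTED-E. No variant sample overlapped the parental ones. LTED-B (0.64, SE 0.03), LTED-D (0.88, SE 0.03) and LTED-E (0.82, SE 0.03) were DE, with adjusted p of 4.8e-13, 4.23e-15 and 8.03e-15, while LTED-A (0.27, SE 0.03, adjusted p = 8.6e-08) stayed under the fold minimum. LTED-A was lower than LTED-D by a DE difference (−0.61, SE 0.03, adjusted p = 1.37e-12, with 9.88% of all genes DE between these variants). In SUM44F NCOA2 stood at 186, 198 and 189 CPM, in LTED-A at 156 and 134, and in LTED-B at 140, 128 and 125. Again the groups did not overlap, with the sign turned: −0.40 in the former (SE 0.09, adjusted p = 0.00507) and −0.54 in the latter (SE 0.08, adjusted p = 0.000269), neither DE. The difference between the lines was itself DE. Averaged over variants, the log2 fold change in MM134 exceeded that in SUM44 by 1.12 (SE 0.06, adjusted p = 1.17e-13), 1 of 3 coregulators DE in that contrast (all genes 21%), where 8 of 9 passed the second call (all genes 45.3%). The excess was 1.14 without SUM44F replicate 1. The gene is on the minus strand of chromosome 8.

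NCOA3, known as AIB1 or SRC-3 and named for its amplification in breast cancer, was lower in all 6 variants. MM134 parental cells held 112, 109 and 105 CPM. The variants held 70.5, 70.7 and 69.8 CPM (LTED-A), 84.1, 82.7 and 87.5 (LTED-B), 92.9, 93.2 and 93.4 (LTED-D), and 81, 79 and 80.9 (LTED-E). All were below the lowest parental sample. LTED-A was DE (−0.64, SE 0.03, adjusted p = 4.99e-13). The other 3 were −0.36, −0.21 and −0.43 (SE 0.03 each), past an adjusted p of 0.05 but under the fold minimum, and all 6 pairs of MM134 variants differed from each other at an adjusted p under 0.05, none of them DE. In SUM44F the level was 148, 152 and 139 CPM, in LTED-A 92.1 and 94.7, and in LTED-B 74.8, 73.1 and 71.7. Both variants were DE and did not overlap with SUM44F: LTED-A was at −0.65 (SE 0.07, adjusted p = 4.33e-05), LTED-B at −1.0 (SE 0.06, adjusted p = 5.77e-07), a 2-fold drop. Without SUM44F replicate 1 these were −0.64 and −0.99 and stayed DE. Without SUM44 LTED-A replicate 1, where the group is a lone sample assumed to vary like the others, LTED-A was −0.58 (adjusted p = 0.000616) and just under the fold minimum. NCOA3 lies at 47501887 to 47656877 on the plus strand of chromosome 20. Exons of SULF2 on the opposite strand overlap it (median count 337 for SULF2, 3911 for NCOA3), and the counting's strand setting is not given in the sources used here. Its promoter window (chr20:47501637-47501886, plus strand, GRCh38.p14) is printed as that of the 1 coregulator lower in every variant.

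NCOA3: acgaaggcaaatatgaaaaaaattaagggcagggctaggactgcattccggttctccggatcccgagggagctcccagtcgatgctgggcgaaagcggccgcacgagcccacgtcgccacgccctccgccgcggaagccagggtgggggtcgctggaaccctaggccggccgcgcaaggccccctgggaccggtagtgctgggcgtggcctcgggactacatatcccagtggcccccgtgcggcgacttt

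Searched on both strands for 6 motifs, the GC box GGGCGG, the box of nuclear factor Y with the letters CCAAT, the core AGGTCA of an estrogen response element, the E2F site TTCCCGC, the forkhead site TGTTTAC and the ETS site CCGGAAG, the window held none, so no base is in capitals. They occurred in 42.6%, 32%, 12.1%, 5.52%, 2.98% and 8.52% of all promoters. No match says only that these letters are not in this window.

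Per length, the makeup of the p160 family can be set side by side. Levels were divided by the length of the canonical transcript, and each gene's share of the summed CPM per kilobase was taken in every sample. In MM134 parental cells NCOA2 made up 49.9% ± 0.206 (SD, n = 3), NCOA3 41.8% ± 0.403 and NCOA1 8.23% ± 0.355. In the 4 variants NCOA2 held 61.7% to 68.3% and NCOA3 24.1% to 27.6%, while NCOA1 held 7.68% to 10.7%. SUM44F had another order, with NCOA1 at 51.5% ± 0.773, NCOA2 at 26.8% ± 0.0719 and NCOA3 at 21.7% ± 0.800 (SD, n = 3 each). NCOA1 rose to 68.4% ± 0.779 in LTED-A (n = 2) and 57.4% ± 0.551 in LTED-B (n = 3), and NCOA3 was at 12.9% ± 1.28 and 15.8% ± 0.418. The NCOA3 share was thus smaller in every variant group than in its parental, and the leading gene stayed NCOA2 in MM134 and NCOA1 in SUM44. The summed level was 32.7 ± 0.829 CPM per kilobase in MM134 parental cells and 84.6 ± 2.60 in SUM44F (SD, n = 3). It was 32, 40.3, 45.2 and 41.9 in MM134 LTED-A, -B, -D and -E, and 91.5 and 58.2 in SUM44 LTED-A and LTED-B.

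**Figure D2:**
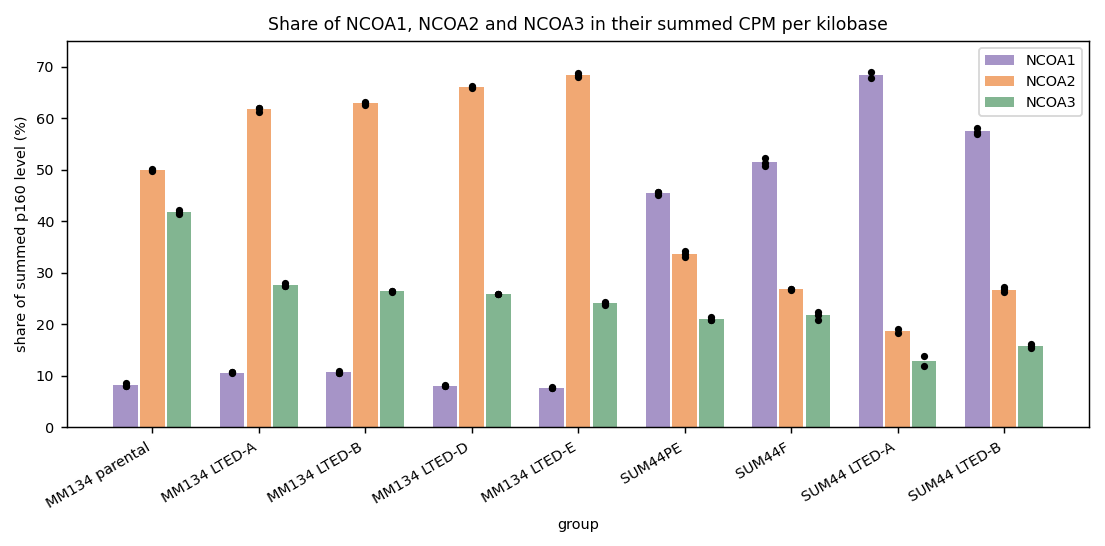
Share of NCOA1, NCOA2 and NCOA3 in their summed CPM per kilobase (vertical axis, percent, from 0) in the 9 groups (horizontal axis), bars giving the group mean and black points the samples. NCOA2 is the tallest bar in all 5 MM134 groups and NCOA1 in all 4 SUM44 groups.

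NCOA7 is an estrogen receptor-associated coactivator outside the p160 family, with a TLDc domain linked to oxidative stress. In MM134 parental cells it stood at 19.3, 18.2 and 19.1 CPM. It was at 31, 30.8 and 31.2 CPM in LTED-A, 27.6, 28.2 and 28.1 in LTED-B, 44.4, 41.5 and 41.1 in LTED-D, and 30.5, 30.4 and 30.3 in LTED-E. All variant samples lay above all parental samples, LTED-D highest. LTED-A (0.71, SE 0.04, adjusted p = 5.59e-12), LTED-D (1.18, SE 0.04, adjusted p = 5.65e-15) and LTED-E (0.70, SE 0.04, adjusted p = 1.01e-11) were DE. LTED-B (0.57, SE 0.04, adjusted p = 2.87e-10) fell just short of the fold minimum at 1.49-fold and passed it at 0.59 when MM134 parental replicate 1 was left out. LTED-B was lower than LTED-D by 0.61 on the log2 scale (SE 0.04, adjusted p = 1.24e-10, all genes 7.4%). In SUM44 the gene read 24.7, 25.4 and 26.7 CPM in SUM44F, 23 and 22.8 in LTED-A, and 20.7, 20.4 and 18.6 in LTED-B. The variant samples were all below SUM44F, by −0.16 in LTED-A (SE 0.08, 95% interval −0.35 to 0.03, adjusted p = 0.172) and in LTED-B by −0.37 (SE 0.08, adjusted p = 0.00256), neither DE. The difference between the lines was DE at 1.05 (SE 0.06, adjusted p = 6.78e-14), and 1.07 without SUM44F replicate 1. NCOA7 lies at 125781161 to 125932034 on the plus strand of chromosome 6.

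EP300 encodes p300, the acetyltransferase that p160 coactivators recruit. In MM134 it read 51.2, 46.1 and 41.3 CPM in parental cells and 38.5 to 51 CPM over the 12 variant samples. LTED-A, -B and -D overlapped with parental cells, while LTED-E at 40.9, 38.5 and 40.9 CPM lay just below all of them. The fold changes were −0.01 (95% interval −0.15 to 0.13), 0.05 (−0.09 to 0.19) and −0.06 (−0.21 to 0.08) in LTED-A, -B and -D, and −0.20 (SE 0.07, adjusted p = 0.0211) in LTED-E. In SUM44F it read 69.1, 73.8 and 68.7 CPM and in LTED-B of SUM44 62.7, 63.1 and 61.9 (−0.17, 95% interval −0.65 to 0.31). In SUM44 LTED-A, replicate 1 gave 196 CPM and the mean of replicates 2 and 3 gave 88.1. Both were above SUM44F, yet they differed more from each other than the latter did from SUM44F. The fold change of 1.01 (SE 0.24, adjusted p = 0.00674) passed the second call only. Without replicate 1 it was 0.37 (adjusted p = 0.00316), and with no filter on low counts the adjusted p was 8.76e-06, a DE call. Its relative CREBBP showed the same split in LTED-A (114 and 52.3 CPM) and so did NCOA6, another coactivator (64.4 and 29.1 CPM), against 52.4 to 62.1 and 26.9 to 31.8 CPM in SUM44F. Whether that library differs for a technical reason was not tested. EP300 is at 41092592 to 41180077 on the plus strand of chromosome 22.

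MED1, the Mediator subunit that ER contacts through its LXXLL motifs, was the other gene DE between the parental lines. It stood at 79.1, 80.1 and 70 CPM in MM134 parental cells and 41.5, 42.1 and 38.8 in SUM44F, without overlap (0.91, SE 0.06, adjusted p = 2.09e-12). NCOA1 and MED1 were the 2 of 9 coregulators DE in that contrast, where 38.1% of the 29606 genes tested were DE. By the second call 8 passed (all genes 65.1%), 2 higher and 6 lower in MM134 parental cells. EP300, 1 of the 6, passed the fold minimum but not the adjusted p (−0.61, SE 0.16, adjusted p = 0.00144). NCOA2, NCOA3 and NCOA7 were at −0.47, −0.43 and −0.44, under the fold minimum. In MM134 variants MED1 was at 64.8 to 75.7 CPM, with −0.13 (SE 0.04, adjusted p = 0.0158) in LTED-A and −0.17 (SE 0.04, adjusted p = 0.00241) in LTED-B. LTED-D and LTED-E gave −0.08 (95% interval −0.17 to 0.01) and −0.02 (−0.11 to 0.07). SUM44 LTED-A was higher at 56.5 and 47.8 CPM (0.35, SE 0.09, adjusted p = 0.0096), and LTED-B overlapped with SUM44F at 43.4, 44.3 and 40.2 CPM (0.06, 95% interval −0.12 to 0.24). None of these was DE. MED1 is at 39404285 to 39451272 on the minus strand of chromosome 17, and exons of an unnamed lncRNA on the other strand (median count 313, MED1 2817) overlap it.

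PELP1, a proline-, glutamate- and leucine-rich scaffold that links ER to chromatin and to cytoplasmic kinases, was the coregulator upregulated in SUM44 variants. SUM44F held 31.1, 35 and 24.4 CPM, LTED-A 52.6 and 51.6, and LTED-B 54, 61.6 and 61.8. Every variant sample exceeded every SUM44F sample. Both variants were DE, LTED-A at 0.79 (SE 0.13, adjusted p = 0.000665) and LTED-B at 0.97 (SE 0.12, adjusted p = 6.47e-05). Without SUM44F replicate 1 they were 0.82 (adjusted p = 0.0015, no longer DE) and 1.00 (adjusted p = 0.000203), and without LTED-A replicate 1 the LTED-A value was 0.82 (adjusted p = 0.00619, no longer DE). In MM134 the gene read 31.6, 33.3 and 30.4 CPM in parental cells and 30.6 to 37.7 CPM in the variants, with fold changes of 0.05 (95% interval −0.06 to 0.17), 0.02 (−0.10 to 0.14) and 0.05 (−0.07 to 0.17) in LTED-A, -B and -D. LTED-E was at 0.17 (SE 0.06, adjusted p = 0.0162). The parental lines themselves gave 0.08 (95% interval −0.10 to 0.27). The change in MM134 was lower than that in SUM44 by 0.82 on the log2 scale (SE 0.11, adjusted p = 4.92e-07), a DE difference that was also found without SUM44F replicate 1 at −0.84. PELP1 lies at 4669774 to 4704337 on the minus strand of chromosome 17. Its promoter window (chr17:4704138-4704387, minus strand, GRCh38.p14) is shown as that of the gene DE in SUM44 variants alone among the 9. The RefSeq start it precedes lies inside the gene bounds just given, so most of the window falls within them.

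PELP1: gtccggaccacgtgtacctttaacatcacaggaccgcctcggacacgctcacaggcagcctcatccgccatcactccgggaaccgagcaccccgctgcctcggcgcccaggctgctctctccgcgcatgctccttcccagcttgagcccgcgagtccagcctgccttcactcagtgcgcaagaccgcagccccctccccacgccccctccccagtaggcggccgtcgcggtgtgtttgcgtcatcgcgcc

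This window, like that of NCOA3, held none of the 6 motifs and has no capitals. Its GC content was 68.4%, and that of NCOA3 66.4%. RefSeq promoters were taken for 8 of the 9 coregulators (14 starts). Those on chromosome 8, where NCOA2 lies, were left out of this step, so NCOA2 was not looked up.

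Neither corepressor was DE in any variant. NCOR1, the scaffold of a histone deacetylase complex, was at 111, 109 and 105 CPM in MM134 parental cells, and at 115, 113 and 115 (LTED-A), 119, 118 and 118 (LTED-B), 124, 119 and 123 (LTED-D) and 122, 125 and 125 (LTED-E). All 12 variant samples were above the parental ones, by small amounts: 0.07, 0.13, 0.19 and 0.21 (SE 0.03 each), with adjusted p from 1.3e-06 to 0.0216. In SUM44F it stood at 123, 124 and 109 CPM and in LTED-A at 152 and 128 (0.24, 95% interval 0.04 to 0.45, adjusted p = 0.0614). LTED-B at 114, 114 and 109 CPM overlapped with SUM44F (−0.08, 95% interval −0.26 to 0.10). The interval of the difference between the lines was −0.07 to 0.19. NCOR1 spans 16029065 to 16218185 on the minus strand of chromosome 17, where exons of TTC19 and PIGL overlap it from the other strand (median counts 2114 and 501, NCOR1 5296).

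LCOR, a ligand-dependent corepressor that binds agonist-bound receptors and recruits CtBP, was lower in MM134 variants. Parental cells held 88.8, 81.9 and 86.8 CPM and the 12 variant samples 66.8 to 76.8, all below. The fold changes ran −0.32, −0.28, −0.23 and −0.16 in LTED-A, -B, -D and -E (SE 0.04 each, adjusted p from 3.99e-07 to 0.0011), each under the fold minimum. In SUM44 the groups overlapped, at 65.3, 64.4 and 66.6 CPM in SUM44F, 66.5 and 59.2 in LTED-A and 71.2, 66.6 and 62.5 in LTED-B. The intervals were −0.24 to 0.12 and −0.13 to 0.19. The lines differed at −0.23 (SE 0.06, adjusted p = 0.00198), and the parental cells at 0.39 (SE 0.05, adjusted p = 1.87e-07), neither DE. LCOR lies at 96832254 to 96995956 on the plus strand of chromosome 10, and its gene model may differ between the annotation used for counting and the one used here for positions.

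**Figure D3:**
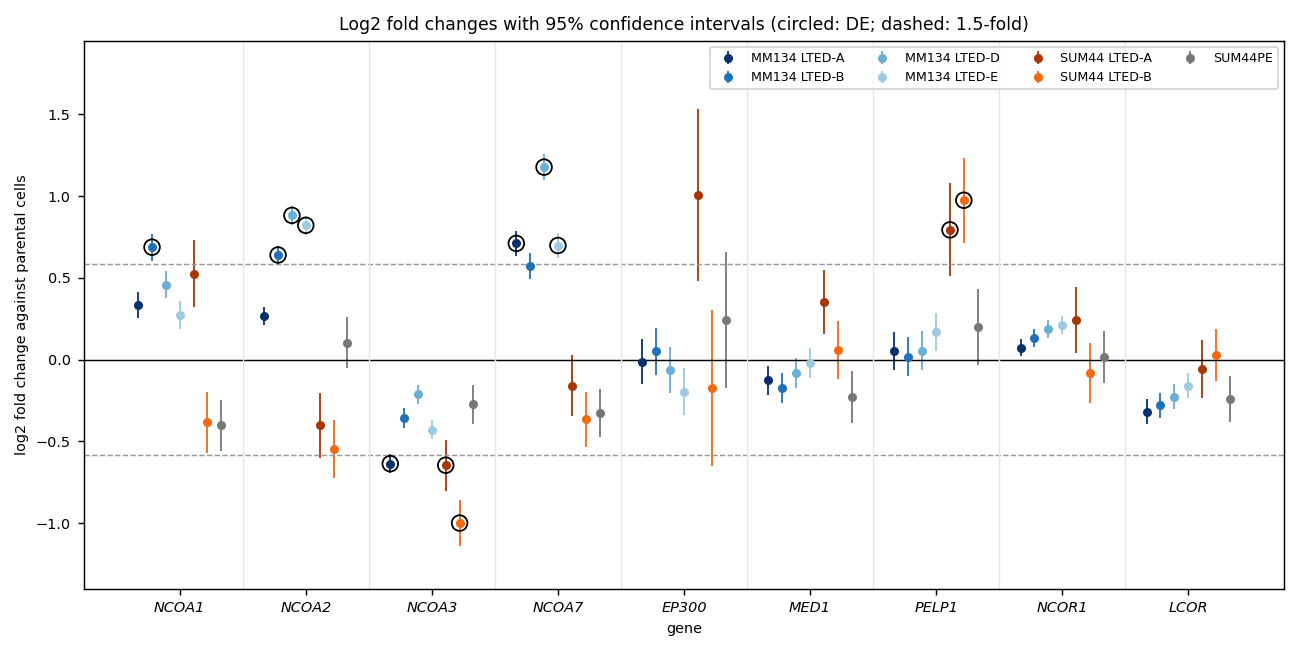
Log2 fold changes (vertical axis) of the 9 coregulators (horizontal axis) in the 6 LTED variants and SUM44PE against MM134 parental or SUM44F cells, with 95% confidence intervals as vertical lines, DE values circled and the 1.5-fold minimum dashed. NCOA2 and NCOA7 lie above 0 in MM134 and mostly below in SUM44, NCOA3 lies below 0 in all 6 variants, and EP300 in SUM44 LTED-A has an interval of 0.48 to 1.53.

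SUM44PE and SUM44F differ in the medium they were grown in, and neither was estrogen-deprived in the long term. None of the 9 coregulators was DE between them by edgeR (all genes 5.57% of 27458) or by DESeq2, and 5 passed an unadjusted p under 0.05. Those 5, NCOA1 (−0.40), NCOA3 (−0.27), NCOA7 (−0.32), MED1 (−0.23) and LCOR (−0.24), were lower in SUM44PE at an adjusted p under 0.05 (all genes 23.1%), and MED1 lost that call without SUM44F replicate 1 (adjusted p = 0.113). NCOA1 read 236, 246 and 253 CPM in SUM44PE, below SUM44F and close to LTED-B. PELP1 was at 32.9, 35.5 and 35.9 CPM, overlapping with SUM44F (0.20, 95% interval −0.03 to 0.43) and below all samples of the LTED variants. NCOA3 was at 119, 122 and 124 CPM, between SUM44F and the variants. The comparison shares the SUM44F samples with those of the LTED variants.

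Levels over the 9 groups were ordered with neighbours compared in 1 fit over all groups, whose shared spread differs from that of MM134 alone. NCOA1 placed the 4 SUM44 groups above the 5 MM134 groups, and MED1 the 5 MM134 groups above the 4 SUM44 groups. SUM44 LTED-B and SUM44PE did not differ in NCOA1 beyond their spread (adjusted p = 0.897), nor did MM134 LTED-D and LTED-A (adjusted p = 0.137) or LTED-A and LTED-E (adjusted p = 0.331), although the fit of MM134 alone separated LTED-A from LTED-D (−0.12, adjusted p = 0.0117). NCOA2 was highest in MM134 LTED-D and LTED-E, which did not differ (adjusted p = 0.432), and lowest in SUM44 LTED-A, MM134 parental and SUM44 LTED-B, whose neighbours did not differ either (adjusted p = 0.308 and 0.261). NCOA3 ran from SUM44F through SUM44PE and MM134 parental, each step a difference, down to SUM44 LTED-B and MM134 LTED-A, which did not differ (adjusted p = 0.197). NCOA7 was highest in MM134 LTED-D and lowest in SUM44PE, SUM44 LTED-B and MM134 parental, neighbours not differing (adjusted p = 0.37 and 0.199). For PELP1 both SUM44 variants led (adjusted p = 0.157 between them), and no neighbours among the other 7 groups differed (adjusted p from 0.441 to 0.933). EP300 was above every other group in SUM44 LTED-A, whose mean rests on 1 sample at 196 CPM beside 1 at 88.1. SUM44PE reached 86.4 CPM. Neighbouring MM134 groups did not differ in EP300 in this fit, which includes that spread. Between groups farther apart, the fit of MM134 alone put LTED-B above LTED-E (0.25, adjusted p = 0.00593). NCOR1 below SUM44 LTED-A, and LCOR from MM134 LTED-E down to SUM44 LTED-A, formed runs in which no neighbours differed.

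Per kilobase of transcript, NCOA2 (16.3 CPM per kilobase) and NCOA3 (13.7) led in MM134 parental cells, ahead of NCOR1 (10.1) and MED1 (9.39). PELP1 (6.25), LCOR (5.36) and EP300 (5.26) followed, with NCOA7 (3.01) and NCOA1 (2.69) last. In SUM44F NCOA1 led at 43.5 CPM per kilobase, followed by NCOA2 (22.7), NCOA3 (18.4), NCOR1 (11.1) and EP300 (8.03). PELP1 (5.93), MED1 (5.02), LCOR (4.09) and NCOA7 (4.09) were lowest. NCOA1 thus held the last place in one line and the first in the other. With union exon length NCOA1 kept both places, but the order of other genes changed. In MM134 parental cells MED1 (8.87 CPM per kilobase) then passed NCOR1 (6.93), and EP300 (3.95) passed LCOR (2.88). In SUM44F MED1 (4.74) passed PELP1 (4.58), and LCOR (2.19) was last. Both lengths of LCOR come from an annotation whose gene model may differ from the one counted, so its place per kilobase is uncertain.

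Each coregulator was set beside the 20 tested genes on either side of it. For NCOA7 the median log2 fold change of these neighbours was 0.0235 in MM134 LTED-D, where NCOA7 was at 1.18. Those of NCOA2 stood at −0.00366 in LTED-D and 0.188 in LTED-E, and those of PELP1 at 0.155 and 0.0401 in the SUM44 variants A and B. The neighbours of NCOA3 had medians of −0.179 in MM134 LTED-A and 0.0494 and −0.217 in the SUM44 variants. These are some of the DE cases, picked for a large change of the coregulator. That each lay farther from 0 than a median over many genes follows from this choice and says nothing about the region. Larger shifts of the neighbours were seen for NCOA1 in MM134 LTED-B (median 0.372, with 77.5% of the 40 genes higher), NCOA2 in SUM44 LTED-B (−0.401, 25% higher), NCOA7 in SUM44 LTED-A (−0.376) and EP300 in SUM44 LTED-A (0.238, 75% higher). Copy number was not measured, and its part in these values was not tested.

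**Figure D4:**
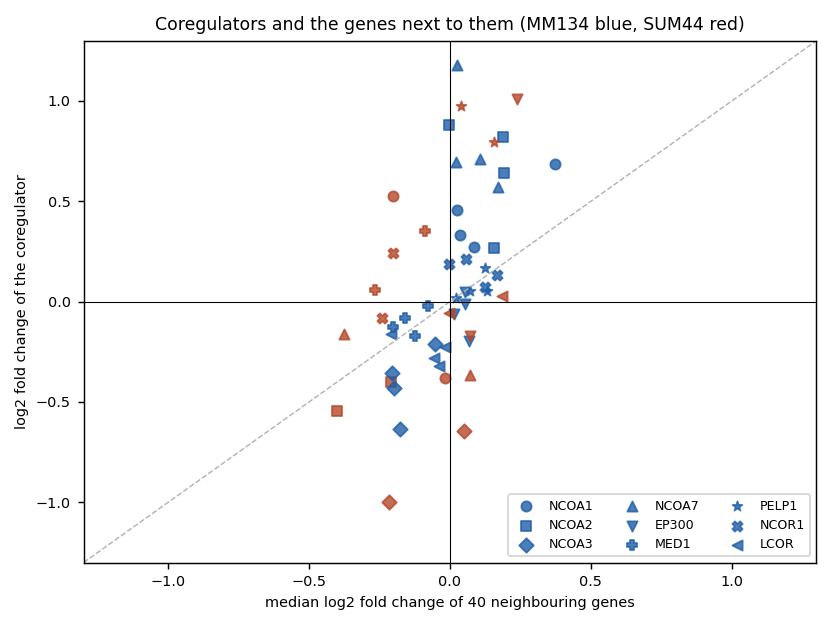
Log2 fold change of each coregulator (vertical axis) against the median log2 fold change of the 40 tested genes nearest to it on its chromosome (horizontal axis), 1 point for each of the 6 LTED variants, MM134 in blue and SUM44 in red, symbols giving the gene and the dashed line equality. Neighbour medians lie between −0.401 and 0.372, while NCOA7 reaches 1.18 and NCOA3 −1.0.

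Which genes followed the coregulators was described by Pearson's r of mean log2(CPM + 1) over the 9 groups after centring within each line. The groups share parental cultures and only 9 points enter, and 6840 genes were compared for most members, so r is only a description. SHCBP1 (r = 0.996) and SASS6 (r = 0.993) were most like PELP1. WASL (0.981) and JPH1 (0.947) were closest to NCOA7, ITSN1 (0.976) and SDC2 (0.966) to NCOA3, and PAQR8 (0.949) and APLP2 (0.947) to NCOA2. FOXP4 (0.983) and CPB1 (0.949) followed EP300, and ZSWIM3 (0.924) and MT-ATP6 (0.923) NCOA1. The EP300 mean in SUM44 LTED-A rests on 1 sample at 196 CPM beside 1 at 88.1, and r was not recomputed without the former. For the genes that varied least the closest were ARID1A (0.958) and FURIN (0.946) for MED1, MT-ND4 (0.955) and NFKBIE (0.932) for NCOR1, and LIPT2 (0.950) and CAMTA1 (0.942) for LCOR. Among the 9 themselves the most opposed pair was NCOA3 and PELP1 (r = −0.867).

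The wider coregulator network was read from 7 lists with 70 other genes, all of which were tested. DE genes among them numbered 3 higher and 6 lower in MM134 LTED-A (12.9%), 1 and 5 in LTED-B (8.57%), 5 and 2 in LTED-D (10%), and 2 and 5 in LTED-E (10%). SUM44 LTED-A had 4 higher and 5 lower (12.9%), LTED-B 5 and 5 (14.3%), and SUM44PE 6 and 2 (11.4%, where 2.85% of all genes were higher and 2.72% lower). All genes had a larger share DE in each LTED variant. For MM134 this was 20.3%, 15.9%, 17.6% and 19% (A, B, D and E), and for SUM44 13.7% and 17.3% (A and B). With 70 genes the SUM44 gaps are small, and whether any of the 6 gaps exceeds sampling was not tested. Of the 70, 46 were DE in none of the 6 variants. No share over all genes was taken for this count, so it gives no result about the lists. The median log2 fold change over the 70 genes was −0.00844, −0.0328, −0.018 and −0.00243 in the MM134 variants, and 0.0966 and 0.202 in the SUM44 variants, where the medians of all genes were −0.057 and −0.0931.

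KAT2B, the acetyltransferase PCAF that joins p160 complexes, stood out among the 7 acetyl- and methyltransferases. It was at 3.99 to 5.38 CPM in MM134 parental cells, and in the A, B, D and E variants at 18.6 to 20, 11.9 to 14.2, 15.2 to 16.8 and 31.3 to 34.3 CPM. It was DE upward in all 4 (2.04, 1.52, 1.79 and 2.82) and not DE in SUM44 (0.30 and −0.29). In that list KAT2A in LTED-D (0.59) and, in SUM44 LTED-B, KAT5 (0.63) and PRMT1 (0.71) were the other DE calls. NRIP1, or RIP140, a ligand-dependent corepressor and a classical estrogen-induced gene, fell from 302 to 335 CPM in MM134 parental cells to 176 to 185, 156 to 162, 175 to 183 and 132 to 137 CPM in LTED-A, -B, -D and -E (−0.84, −1.0, −0.82 and −1.24, all DE). In SUM44 it was not DE, at 0.41 and 0.27. No other gene of its list, LCORL, CTBP1, CTBP2 and HDAC6, was DE in any variant.

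Of the 32 other Mediator subunits and kinase-module genes, MED12L was DE downward in all 4 MM134 variants (−2.81, −3.32, −1.50 and −1.76), from 11.7 to 12.9 CPM in parental cells, and CDK19, a Mediator kinase, in both SUM44 variants. CDK19 stood at 27.4 to 29.7 CPM in SUM44F, 18.8 and 18.5 in LTED-A (−0.61) and 7.32 to 7.84 in LTED-B (−1.90), and the LTED-A call was lost without SUM44F replicate 1 (adjusted p = 0.00107) and without LTED-A replicate 1 (−0.58, adjusted p = 0.00208). Its paralog CDK8 was DE upward in MM134 LTED-D (0.73), LTED-E (0.66) and SUM44 LTED-A (1.60). MED23, chosen after its values were seen, was at 121 to 133 CPM in SUM44F, 56.3 and 67 in LTED-A (−1.03) and 208 to 225 in LTED-B (0.77), DE in opposite directions, and both calls were also made without SUM44F replicate 1. MED13L (0.67, MM134 LTED-D), MED15 (0.81) and MED22 (0.63) in SUM44 LTED-A, and MED30 (0.69) and CCNC (−0.82) in SUM44 LTED-B were DE in 1 variant each, and the calls of MED15 and MED22 were lost without LTED-A replicate 1 and that of MED30 without SUM44F replicate 1. The Mediator medians were 0.000478, 0.0041, 0.0205 and −0.00243 in the MM134 variants and 0.108 and 0.222 in the SUM44 variants.

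Of the 7 partners of PELP1, MTA1, a component of the NuRD deacetylase complex, was DE downward in MM134 LTED-A (−0.63), LTED-B (−0.62) and LTED-E (−0.66), and no partner was DE in the SUM44 variants where PELP1 rose, though 4 and 6 were higher and none lower at an adjusted p under 0.05 in turn (all genes 17.8% higher and 18.3% lower in LTED-A, 22.8% and 23.1% in LTED-B). Among 5 genes of the NCOR1 complex, TBL1X was DE downward in MM134 LTED-A (−0.74) and LTED-E (−0.66) and upward in SUM44 LTED-A (0.91), and TBL1XR1 upward in MM134 LTED-A (0.61). The TBL1X call in SUM44 LTED-A was lost without SUM44F replicate 1 (adjusted p = 0.0018) and without LTED-A replicate 1 (0.59, adjusted p = 0.00121). Of the other NCOA genes, NCOA4 (−0.59) and NCOA5 (−0.62) were DE downward in MM134 LTED-A alone, and NCOA6 in none.

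Among the 11 other ER coregulators, PPARGC1A and PPARGC1B, the metabolic coactivators PGC-1α and PGC-1β, were DE downward in both SUM44 variants. PPARGC1A fell from 47.1 to 49.2 CPM in SUM44F to 26.1 and 26.5 in LTED-A (−0.88) and 13.8 to 16.2 in LTED-B (−1.73), and PPARGC1B from 18.2 to 20.7 CPM to 4.03 and 3.33 (−2.38) and 1.56 to 1.72 (−3.53). Both were also DE downward in SUM44PE (−0.97 and −0.98). That comparison and those of the variants share the SUM44F samples, so their values are not independent. The other 6 DE calls in SUM44PE were all higher: MED15 (0.94), CDK19 (0.77), TBL1X (0.78), CORO2A (0.76), NRIP1 (0.62) and MTA1 (0.69). MED15 and TBL1X were thus DE upward in SUM44PE as in SUM44 LTED-A, CDK19 in the direction opposite to the LTED variants, and the TBL1X call in SUM44PE was lost without SUM44F replicate 1 (adjusted p = 0.00133). In MM134 the pair split, PPARGC1A being DE upward in LTED-A (0.82) and LTED-D (1.04) and PPARGC1B downward in LTED-B (−1.01) and LTED-E (−0.92). DDX5 in MM134 LTED-B (−0.60) and SUM44 LTED-A (−0.62), and TRIM24 (−0.90) and PHB2 (0.63) in SUM44 LTED-B, were the list's other DE calls. The DDX5 call in SUM44 LTED-A was lost without SUM44F replicate 1 (adjusted p = 0.00311) and without LTED-A replicate 1 (−0.45, adjusted p = 0.00435).

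**Figure D5:**
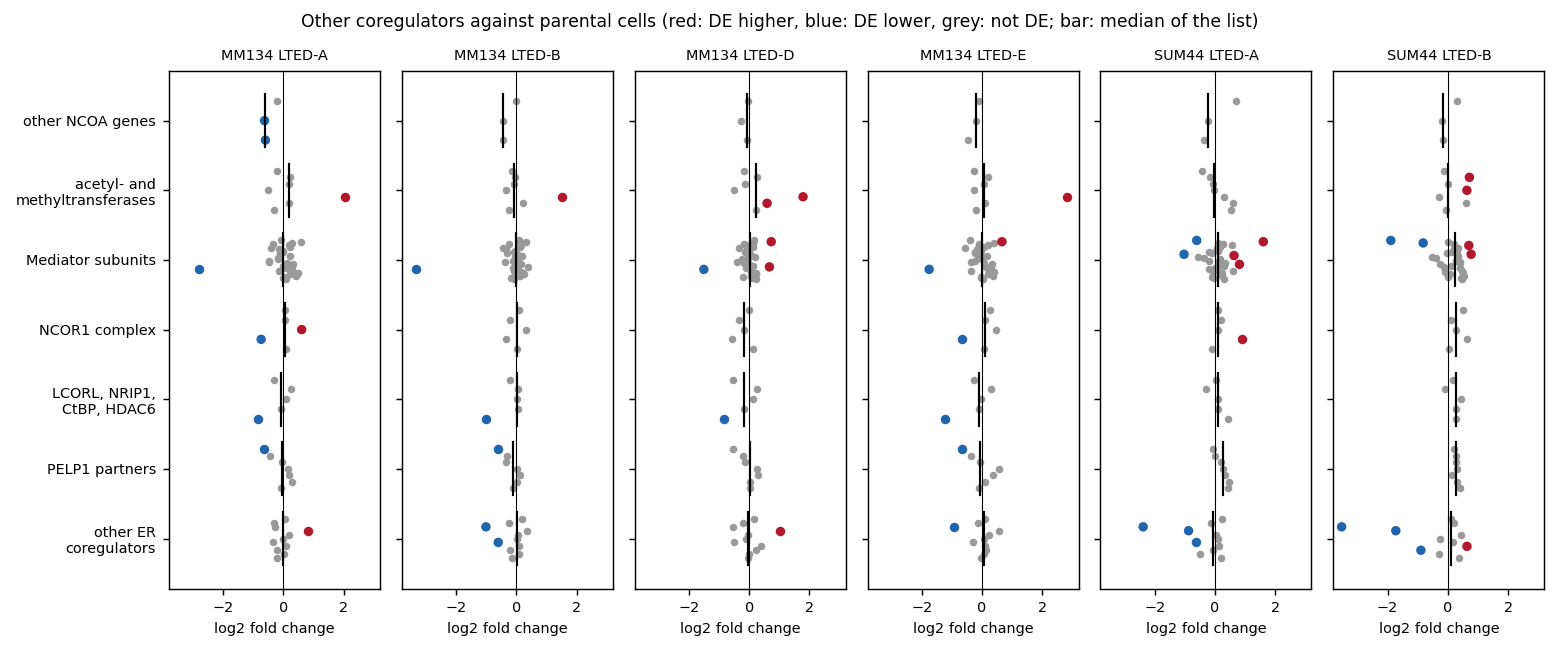
Log2 fold changes (horizontal axes) of the 70 other coregulators by list (rows) in the 6 LTED variants (panels), 1 point a gene, DE genes in red where higher and blue where lower, with the list's median as a vertical bar. KAT2B is the red point beyond 1.5 in each MM134 panel, and PPARGC1B the leftmost blue point in both SUM44 panels.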

How the data were processed

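RNA-seq was analysed in 27 libraries of MM134 and SUM44 cells (TruSeq stranded total RNA kit). The authors quantified reads with Salmon (version 0.6.0, hg38, per the submitters' notes) and deposited estimated counts per gene, which were rounded to whole numbers here. Trimming and the strand setting are not given in the sources used here, so overlapping genes may share reads. All columns were used. Total counts were 28583554 to 134882175 per library.

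Each line was fitted with all its groups by edgeR 4.0.16 in R 4.3.3 (filterByExpr, TMM, quasi-likelihood test, two-sided, Benjamini-Hochberg over all genes tested), SUM44PE with SUM44, and the contrasts between lines over all 9 groups. DE is a fold change above 1.5 with an adjusted p under 0.001, the study's thresholds. Levels are CPM with TMM over all samples, and per length they use the canonical transcript of GENCODE. Promoters are from RefSeq (GRCh38.p14). The test was run on simulated data with known changes. All 9 coregulators passed the filter in every fit.

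The members and lists were chosen with earlier results of these data known. The lists are printed without 1 gene, which is not reported here. All members are named. From each list, up to 4 genes DE in the same direction in at least 3 MM134 variants or both SUM44 variants are described, along with the other DE genes, which were named after their values were seen; CREBBP and NCOA6 likewise. For each member the 2 protein-coding genes of highest r were named, among those with a mean of at least 5 CPM and a centred SD of at least 0.2. Alternatives were DESeq2 1.42.0 (the study's tool), RLE size factors, no filter on low counts, thinned counts, a replicate block, fewer or more groups in the fit, unmerged libraries and each library left out.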

Additional observations from a re-analysis of the deposited data

Results flagged for a closer look

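The change from parental to LTED cells differed between the lines, by a test of that difference, in 3 of 9 coregulators at the DE rule (all genes 21%). By the second call 8 of 9 differed (all genes 45.3%). Averaged over the variants of a line, the log2 fold change in MM134 less that in SUM44 was 1.12 (SE 0.06) for NCOA2, 1.05 (SE 0.06) for NCOA7 and −0.82 (SE 0.11) for PELP1, with adjusted p of 1.17e-13, 6.78e-14 and 4.92e-07 by edgeR's quasi-likelihood test.

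Variants of 1 line differed from each other, by the same kind of test, in 3 cases at the DE rule. The 9 coregulators were tested in 6 pairs of MM134 variants and 1 pair of SUM44 variants. In these pairs 7.06% to 11.6% of all genes were DE. By the second call more cases differed, NCOA3 in all 6 MM134 pairs. NCOA2 was lower in MM134 LTED-A than in LTED-D (−0.61, SE 0.03, adjusted p = 1.37e-12). NCOA7 was lower in MM134 LTED-B than in LTED-D (−0.61, SE 0.04, adjusted p = 1.24e-10), and this fell to −0.57, under the fold minimum, without MM134 LTED-D replicate 1. NCOA1 was higher in SUM44 LTED-A than in LTED-B (0.91, SE 0.09, adjusted p = 4.93e-05). Groups of 3 samples or fewer were not searched by a set rule for single samples that stand apart. SUM44F replicate 1 and SUM44 LTED-A replicate 1 were singled out from their values.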

How the results depend on the processing

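Of 1179 log2 fold changes of the 9 coregulators recomputed under the alternatives, 1168 kept their direction and side of the DE threshold, 5 lost DE, 6 gained it and none reversed. The number of DE coregulators in SUM44 LTED-A, 2, was the least stable: it was 0 when SUM44F and LTED-A were fitted alone, with NCOA3 at −0.63 (adjusted p = 0.00133) and PELP1 at 0.81 (adjusted p = 0.00284), and 0 to 2 over the fits leaving out 1 library, with 0 without LTED-A replicate 1 and 1 without SUM44F replicate 1. Fewer samples enter each of these fits. With 1 library left out, the counts were 2 in MM134 LTED-A, LTED-D and LTED-E, 2 to 3 in MM134 LTED-B (NCOA7 gained at 0.59) and SUM44 LTED-B (NCOA2 gained at −0.59), 0 in SUM44PE, 3 between the lines' changes, 2 between parental lines and 2 to 3 between variants. EP300 became DE between the parental lines (−0.60 or −0.61) with no filter, RLE size factors or DESeq2, and in SUM44 LTED-A (1.01) with no filter. The cause was not tested.

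With the replicate number as a block, the counts were 2 in each of the 6 variants, 0 in SUM44PE, 3 between the lines' changes, 2 between the parental lines and 3 between variants, all as without it. The numbers do not pair the samples: deviations of same-numbered libraries correlated at −0.40 to 0.30 in MM134 and −0.21 to 0.25 in SUM44, and 5 of 15 and 5 of 12 libraries correlated best with their own number. The order of levels over groups was not recomputed with libraries left out. With union exon length, NCOA2 still led the p160 family in MM134 and NCOA1 in SUM44. Depth limited no coregulator, since the lowest count was 590, while n = 2 and 1 culture a group limit SUM44 LTED-A most.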
